A study of Mus musculus with 48 samples.

Results

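Named pseudogenes counted in single mouse embryos at the 2-cell stage are described here gene by gene and beside their parent genes. A member is a gene whose symbol ends in -ps, with or without a number, and whose mean was at least 1 count per 1000000 counts (CPM) over the libraries with at least 100000 counts. Of 55421 genes in the table, 1586 carried such a symbol, 648 of these had a count in those libraries, and 167 reached the mean of 1 CPM. The values that chose the members are their mean levels over K49A and WT embryos together. Just inside the limit lay Rpl9-ps4, Phf20-ps and Psmb6-ps, each at 1.02 CPM, and just outside it lay Rpl31-ps17 at 0.996, Rpsa-ps12 at 0.989 and H2-T-ps at 0.945 CPM. The mean reached 1 CPM within each group for 127 members, in K49A embryos alone for 32 and in WT embryos alone for 8.

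The study sequenced 24 K49A and 24 WT embryos, 1 per well, with Smart-seq2, which copies whole polyadenylated transcripts from very little RNA. K49A stands for a 1-residue change in protamine 1, which compacts DNA in the sperm head. All embryos were C57BL6 and were collected 26 to 28 hours after fertilization, and the labels used here do not say which parent carried K49A or which embryos share a parent. Each embryo counts as 1 replicate, so a p-value reflects embryo-to-embryo spread, some of it perhaps between litters. Levels are relative to the other genes of the same library, so the amount of RNA in an embryo and the number or size of its cells cannot be read from them.

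A processed pseudogene is a copy of a messenger RNA that was written back into the genome, so it lacks the introns of its parent and mostly lacks its promoter. An unprocessed pseudogene arose by duplication of the gene itself and keeps its exons and introns. Ribosomal protein genes, whose messages are abundant in germ cells, have left many processed copies in mammals, while tandem duplication gave rise to clusters such as Zscan4 and Obox, whose genes are transcribed when the mouse embryo first activates its genome at 2 cells. Reads from a copy that matches its parent base for base cannot be assigned by sequence, and the program RSEM, named by the submitters, divides such reads by a statistical model.

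The library totals of the 17 K49A and 12 WT embryos tested ran from 105627 to 4947276 counts in K49A embryos and from 421301 to 5309505 in WT embryos. The other 19 libraries held 58 to 39135 counts and entered no comparison. Among the tested libraries, 14 K49A and 10 WT had at least 1000000 counts and 12000 detected genes and are called deep libraries. The 9 markers of the 2-cell embryo were all counted, with a summed level of 90.7 to 1732 CPM in K49A embryos and 134 to 1866 in WT embryos, and the 7 oocyte and embryo markers summed to 1560 to 10942 CPM in K49A embryos and 1388 to 7638 in WT embryos. The 5 blood markers summed to a median of 77.8 CPM in K49A embryos (7.76 to 305) and 13.7 in WT embryos (8.61 to 29.3), with Hbb-bs at 0 throughout, and the 8 cumulus and granulosa markers to 21.9 CPM in K49A embryos (0 to 133) and 7.96 in WT embryos (0 to 25.3). The 6 sperm and spermatid markers summed to a median of 4.14 CPM in K49A embryos (0 to 231) and 3.68 in WT embryos (1.12 to 38.7), with Akap4 at 0 throughout. The 5 markers of later stages summed to 30.8 CPM in K49A embryos (3.24 to 242) and 36.2 in WT embryos (0 to 179).

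Together the members took a small part of each library. They held a median of 0.174% of counts in K49A embryos, with a range of 0.104% to 0.234%, and 0.197% in WT embryos, with a range of 0.129% to 0.228%. The groups overlapped over nearly their whole range. The number of members with a count was a median of 137 in K49A embryos (44 to 156) and 139 in WT embryos (52 to 153). Only 6 members had a count in each of the 29 embryos.

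How far a member could be told from other genes set what its count can mean, so the sequences come first. For each pseudogene, the stretches of 50 bases in its annotated transcripts (GENCODE M21, GRCm38) that occur in no transcript of another gene on either strand were counted. Such unique stretches made up a median of 26.1% of a member, against 70.2% for the 481 -ps genes counted below 1 CPM and 94.0% for the 938 with no count. No stretch was unique in 25 members, while 58 members had at least 50% and 30 had at least 80% unique stretches. Membership was chosen on level, so the difference between members and the rest is a description. The following 60-base windows lie in the coding sequence of the parent and show how closely copies match. Capitals mark the bases at which a pseudogene and its parent differ, and each window is the ungapped one with the most differences in the alignment. The 1 window of Tpt1-ps3 (chr6:99878047-99878106, minus strand, GRCm38) is printed once because the parent Tpt1, which encodes translationally controlled tumor protein, has the same bases. The Oaz1-ps window (chr17:17345987-17346046, minus strand) holds the 1 mismatched base in the alignment with Oaz1, the gene of ornithine decarboxylase antizyme, which also has 1 gap base. The Rps2-ps13 window lies at chrX:52899006-52899065 on the plus strand, that of Rps15a-ps6 at chr11:6172864-6172923 on the minus strand, that of Rpl19-ps3 at chr14:49112718-49112777 on the minus strand, and that of Obox3-ps5 is spliced within chr7:15295171-15295356 on the minus strand.
Tpt1-ps3 and Tpt1: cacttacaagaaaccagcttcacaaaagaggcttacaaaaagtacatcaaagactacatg
Oaz1-ps: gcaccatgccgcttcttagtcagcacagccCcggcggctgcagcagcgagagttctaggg
Oaz1: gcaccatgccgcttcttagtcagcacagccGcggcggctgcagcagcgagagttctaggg
Rps2-ps13: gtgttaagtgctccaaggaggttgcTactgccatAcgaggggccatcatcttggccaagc
Rps2: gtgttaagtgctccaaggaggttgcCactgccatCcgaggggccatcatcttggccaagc
Rps15a-ps6: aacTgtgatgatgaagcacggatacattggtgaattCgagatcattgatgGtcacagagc
Rps15a: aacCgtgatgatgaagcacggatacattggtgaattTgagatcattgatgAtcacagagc
Obox3-ps5: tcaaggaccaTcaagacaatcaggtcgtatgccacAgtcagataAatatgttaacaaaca
Obox3: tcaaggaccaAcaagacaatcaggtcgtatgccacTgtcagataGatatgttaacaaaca
Rpl19-ps3: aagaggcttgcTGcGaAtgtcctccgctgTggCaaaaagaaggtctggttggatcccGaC
Rpl19: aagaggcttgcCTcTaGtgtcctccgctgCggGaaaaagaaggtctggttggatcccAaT
The Rpl19 window differs at 8 of 60 bases, those of Rps15a and Obox3 at 3, and that of Rps2 at 2. Counted from the first base of the Rps2 coding sequence, the Rps2-ps13 differences are C444T and C453A.

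The members were mostly processed copies. The annotation calls 106 of them processed and 16 transcribed processed pseudogenes, 16 unprocessed and 11 transcribed unprocessed, 12 protein coding, 3 lincRNA, 2 polymorphic and 1 a bidirectional promoter transcript. By the stem of the symbol, 63 were copies of ribosomal protein genes, 13 bore the stems of 2-cell, oocyte or zinc finger families, 6 of translation and protein folding genes, 2 of the respiratory chain, 2 of chromatin genes, and 81 others. Median unique stretches were 10.9% for the ribosomal protein copies and 27.5% for the 2-cell and oocyte families. Of all members, 48 lie inside another gene, 44 of them in its introns, and 20 meet an exon of another gene. The counting used here has no stated strand, so reads of such a neighbour and of the member cannot be told apart.

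A parent gene was found for 132 members, 5 of them under an older symbol, and 12 more were compared with the summed rows of the family their stem names. For the other 23 no parent row was used. The aligned parts matched the parent or its closest family member at a median of 98.95% of bases, and 21 members were 100% identical there.

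**Figure D1:**
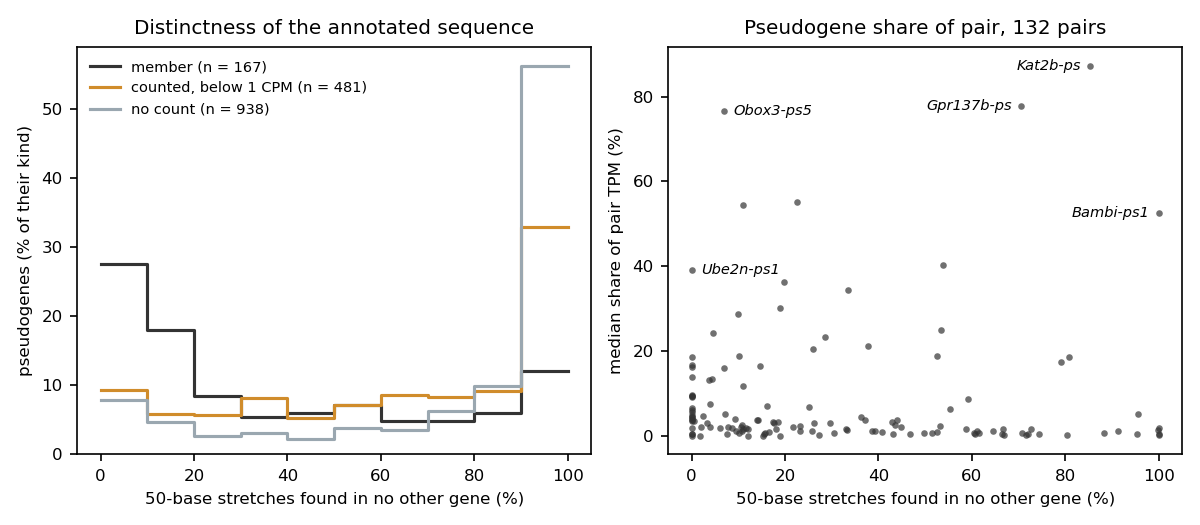
Left, the percent of pseudogenes (vertical axis) in each 10-point bin of the percent of 50-base stretches found in no other gene (horizontal axis), for members, -ps genes counted below 1 CPM, and those with no count. Right, the percent of the pair's TPM that the pseudogene held, as the median over 29 embryos, for 132 pairs. Members crowd toward the left, and Kat2b-ps, Gpr137b-ps, Obox3-ps5 and Bambi-ps1 stand above 50%.

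Levels of pseudogene and parent were compared on the deposited scale of transcripts per 1000000 (TPM), which counts per length. In the median embryo, the pseudogene held a median of 2.49% of the summed TPM of its pair over the 132 pairs, and 88 pairs were below 5%. In 6 pairs the pseudogene held more than 50%.

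Among those 6 was Gpr137b-ps, an unprocessed duplicate on chromosome 13 (12615057 to 12650388, minus strand) of a gene for a lysosomal membrane protein. It had a median of 190.5 TPM in K49A embryos, with a range of 0 to 277, and 169 in WT embryos, with a range of 59.9 to 229. Gpr137b itself had 46.7 TPM in K49A embryos (2.23 to 121) and 49.3 in WT embryos (14.9 to 106). The pseudogene stood above its parent in 27 of 29 embryos, and 70.5% of its stretches were unique. Obox3-ps5, a copy of an oocyte-specific homeobox gene on chromosome 7 (15293949 to 15295548, minus strand), was above Obox3 in 24 of 29 embryos. It had 38.0 TPM in K49A embryos (0 to 163) and 117 in WT embryos (4.23 to 228), while Obox3 had 14.5 TPM in K49A embryos and 42.4 in WT embryos. Only 7.02% of its stretches were unique.

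Kat2b-ps, a processed copy of a histone acetyltransferase gene, held a median of 87.2% of its pair in K49A embryos and 87.5% in WT embryos. Both genes were low, the pseudogene at 2.33 TPM in K49A embryos and 2.10 in WT embryos, and Kat2b at 0.62 TPM in K49A embryos and 0.19 in WT embryos. Bambi-ps1 is a processed copy of the gene for a pseudoreceptor that dampens TGF-beta signaling, and all its stretches were unique. It had a median of 20.5 TPM in K49A embryos (0 to 64.8) and 2.88 in WT embryos (0 to 27.9), while Bambi had 7.44 TPM in K49A embryos and 19.2 in WT embryos. Obox3-ps2 and Rpl36-ps8 were the other pairs above 50%.

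Copies with a near-perfect or perfect match to the parent mostly held less than 50%, as most pairs did. Over all 132 pairs their shares were not the lower ones. The median share was 5.73% over the 22 pairs with no unique stretch and 2.49% over 74 with under 50% unique stretches. It was 1.03% over 24 with 50% to 80%, and 1.27% over 12 with 80% or more. Among pairs whose pseudogene passed the filter on low counts described below, the order differed. From no unique stretch upward, the medians there were 9.35% over 11 pairs, 6.89% over 33, 18.1% over 6 and 28.8% over 4. Tpt1-ps3 took 13.7% of the pair in the median K49A embryo (0 to 16.96%) and 13.99% in the median WT embryo (9.75% to 30.8%). Oaz1-ps took 2.00% in K49A embryos (1.57% to 2.37%) and 1.99% in WT embryos (1.61% to 2.68%), the parent at 6461 TPM in the median K49A embryo and 6969 in the median WT embryo. Sms-ps, an X-linked copy of the spermine synthase gene, took 17.3% in K49A embryos and 15.7% in WT embryos. Ube2n-ps1, a copy of a ubiquitin-conjugating enzyme gene, took 39.5% in K49A embryos and 38.4% in WT embryos. It lies in an intron of Clock on the same strand, and Clock had a mean of 58.7 CPM over the tested embryos. Tpt1-ps3, Sms-ps and Ube2n-ps1 are identical to their parents where aligned and Oaz1-ps has 1 mismatch, so the sequences hold little or nothing to divide these reads by.

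Over the 29 embryos, pseudogene and parent levels were set against each other on the log2(CPM + 1) scale. In 5 of the 6 pairs named here at most 10.2% of the pseudogene's stretches were unique, and the counting model divides reads that fit both genes, so the 2 counts are not independent. For these 5 the correlation is a description, with no p. Oaz1-ps and Oaz1 had a Pearson r of 0.975 and a Spearman rho of 0.82, and r was 0.95 without the 2 embryos farthest from the median of Oaz1. For Tpt1-ps3 r was 0.62 and rho 0.76, with r at 0.55 without the 2 farthest embryos. For Obox3-ps5 r was 0.60 and rho 0.75, with r at 0.52 without the 2 farthest. For Rps2-ps10 r was 0.37 and rho 0.41, with r at 0.28 without the 2 farthest. Rps2-ps13 and Rps2 had an r of 0.01 and a rho of 0.11, with r at -0.04 without the 2 farthest. Gpr137b-ps, with 70.5% unique stretches, had an r of 0.57 (permutation p = 0.00616) and a rho of 0.50 (permutation p = 0.00654). Over the 132 pairs computed, its Benjamini-Hochberg adjusted p was 0.00945 for r and 0.0115 for rho. Its r was 0.16 without the 2 farthest embryos, K49A replicates 3 and 14, neither of them a deep library. Within the groups r for Gpr137b-ps was 0.59 in K49A and 0.64 in WT embryos, and it was 0.71 in the deep libraries, which leave out both replicates. Within the groups, r for Oaz1-ps was 0.988 in K49A and 0.952 in WT embryos, and for Rps2-ps13 it was 0.40 in K49A and -0.34 in WT embryos. In the deep libraries alone, r was 0.98 for Oaz1-ps, 0.93 for Tpt1-ps3, 0.84 for Obox3-ps5, 0.47 for Rps2-ps10 and 0.05 for Rps2-ps13. Grouped by sequence, the median rho over embryos was 0.73 for the 22 pairs with no unique stretch, 0.54 for 74 with under 50%, 0.47 for 24 with 50% to 80%, and 0.22 for 12 with 80% or more. The embryos of each pair share their libraries and depth, so this order is a description.

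**Figure D2:**
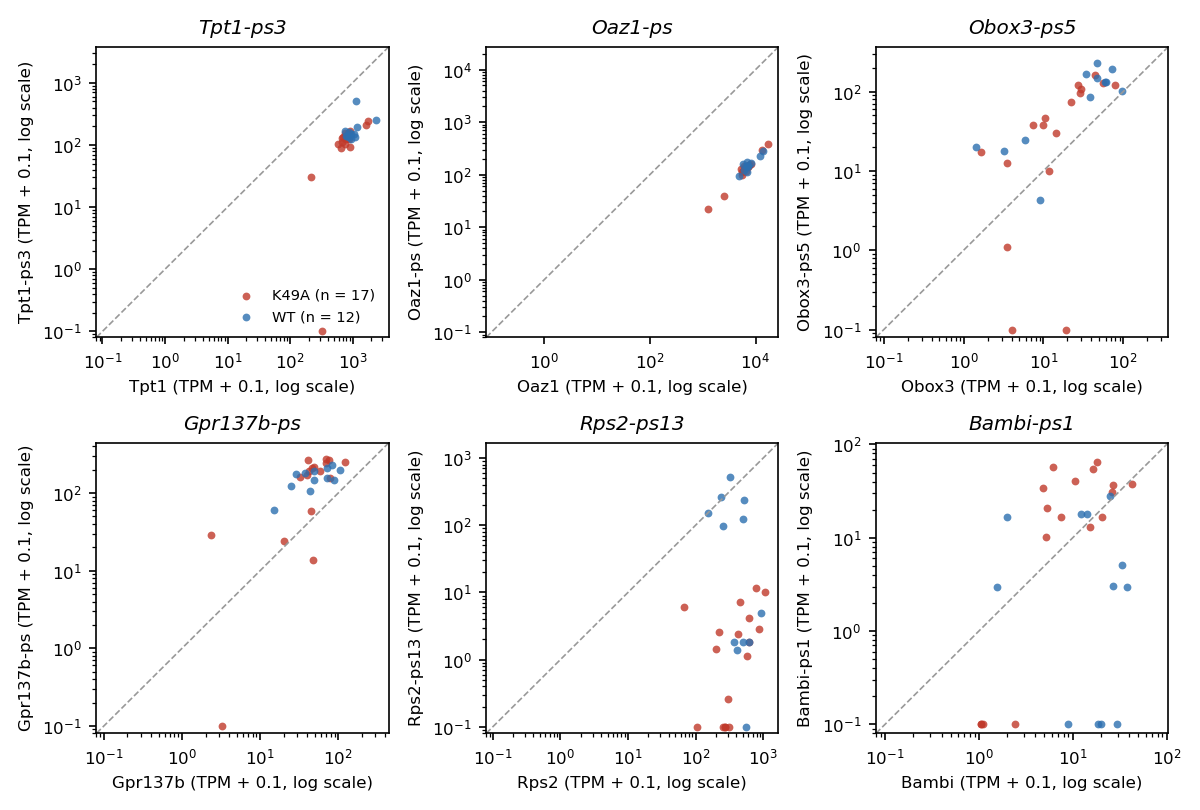
TPM + 0.1 of the pseudogene (vertical, log scale) against that of its parent (horizontal, log scale) in each K49A and WT embryo, for 6 pairs, with the line of equal levels dashed. Oaz1-ps follows Oaz1 closely, Gpr137b-ps and Obox3-ps5 lie mostly above the line, and Rps2-ps13 reaches or passes the level of Rps2 in a few WT embryos and in no K49A embryo.

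The most abundant member was Tmem250-ps, annotated as a lincRNA on chromosome 2 (26136814 to 26140521, minus strand), with 86.9% unique stretches. It had a median of 235 CPM in K49A embryos, with a range of 41.1 to 470, and 260 CPM in WT embryos, with a range of 37.8 to 509, and it was counted in each of the 29. The groups overlapped over nearly their whole range, and an exon of 1810012K08Rik lies on the opposite strand within its span. Olfr1300-ps1, a polymorphic olfactory receptor pseudogene on chromosome 2 with 88.6% unique stretches, which meets an exon of Gm44840 on the same strand, had 25.3 CPM in K49A embryos (0 to 62.9) and 32.3 in WT embryos (8.02 to 83.9). Zfp353-ps, a processed zinc finger copy with 91.3% unique stretches, had 13.4 CPM in K49A embryos and 9.98 in WT embryos. Atp6v0c-ps2, a copy of a proton pump subunit gene, had 28.5 CPM in K49A embryos (6.78 to 109) and 24.4 in WT embryos (0 to 112). Of the 12 most abundant members, 11 passed the filter on low counts in the main comparison and 0 of these were called. The other, Rps2-ps13, did not pass it there but was called lower in K49A embryos in other settings.

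**Figure D3:**
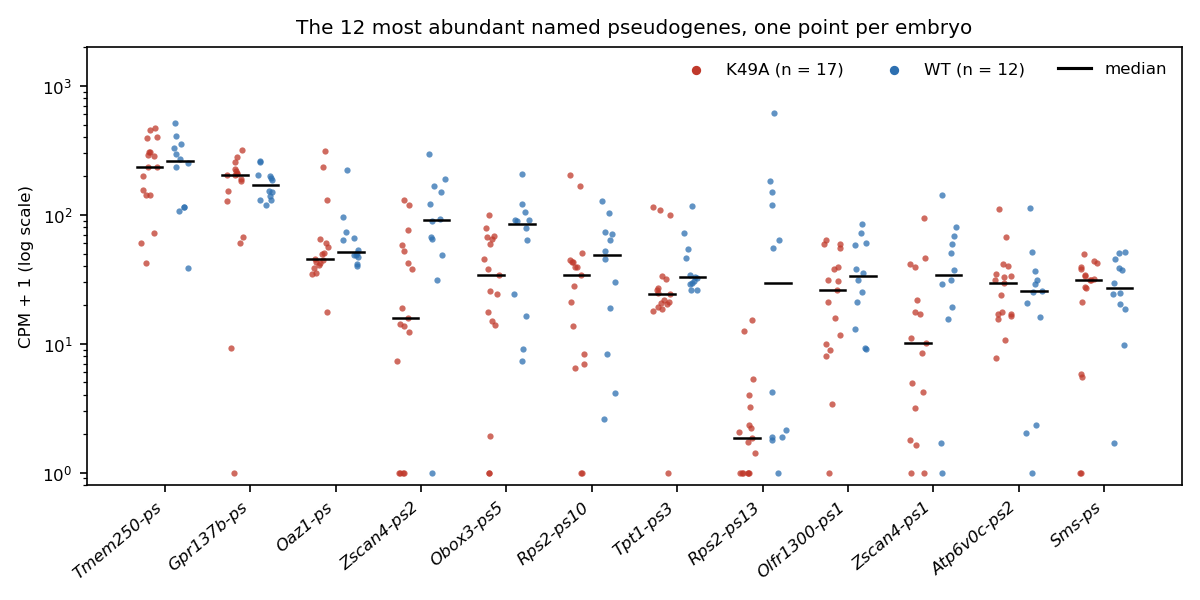
CPM + 1 (log scale) of the 12 most abundant members in each of 17 K49A and 12 WT embryos, with the group median as a bar. The groups overlap for each, and Rps2-ps13 reaches 617 CPM in WT embryos against at most 14.3 in K49A embryos.

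No member was called different between K49A and WT embryos by the quasi-likelihood test of edgeR with Benjamini-Hochberg adjustment at 0.05. The filter on low counts kept 79 of the 167 members among 12456 genes. Of the 79, 0 were called higher and 0 lower in K49A embryos, where 0% of all genes tested were called higher and 0.0161% lower, and the smallest adjusted p among them was 0.308. At an unadjusted p under 0.05, 7 members were higher and 5 lower, where 6.25% of all genes were higher and 1.49% lower. The log2 fold change was positive for 36 and negative for 43 of them, with a median of -0.04, beside a median of 0.11 over all genes tested. DESeq2 on the same genes called Gpx4-ps2 higher and Ube2d-ps and Vmn2r-ps110 lower, where it called 0.594% of all genes higher and 0.0883% lower. With no filter on low counts, 2 members were called higher, Rps15a-ps6 and Rps15a-ps7, and 3 lower, Rps2-ps13, Ube2d-ps and Vmn2r-ps110, where 2.14% of all genes were called higher and 1.51% lower. Both copies called higher are members through K49A embryos, with means of 6.91 CPM for Rps15a-ps6 and 10.3 for Rps15a-ps7 in K49A embryos and 0.398 and 0.406 in WT embryos, so the rule partly fixes that direction and these calls support nothing. Their highest values lay in K49A replicate 14, not a deep library. Of the parents, 100 of 111 were tested and 0 were called by edgeR, with 58 positive and 42 negative fold changes, a median of 0.13, and 25 higher and 2 lower at an unadjusted p under 0.05. Several ribosomal protein parents were highest in the same K49A replicate 14, which held 55.1% of the summed CPM of Rps26.

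The 2-cell and oocyte families had negative fold changes in 11 of the 11 members that were tested, of 13, with a median log2 fold change of -0.96, where 5184 of 12456 genes tested were negative. Many of these members are close copies of Obox3 or of Zscan4 genes, with a median of 27.5% unique stretches over the class. They can share reads with each other and with their parents, so the 11 signs are not independent and support no direction. None was called, and 1 was lower at an unadjusted p under 0.05, where 1.49% of genes were. With all 13 kept, 12 were negative, and with DESeq2 size factors or library totals alone 11 of 11 were. The 9 markers of the 2-cell embryo summed to a median of 616 CPM in K49A embryos and 1110 in WT embryos, and their part in this was not tested. Zscan4-ps2, a copy within the Zscan4 cluster on chromosome 7 (11514310 to 11519111), had a median of 14.9 CPM in K49A embryos (0 to 130.03) and 90.4 in WT embryos (0 to 297). Both groups held embryos at 0 and overlapped, with a log2 fold change of -1.62 ± 0.62 (SE) and an adjusted p of 0.453 by edgeR. The 6 summed rows of the Zscan4 family had a median of 64.1 TPM in K49A embryos and 309 TPM in WT embryos. Zscan4-ps1 had 9.20 CPM in K49A embryos (0 to 92.6) and 33.1 in WT embryos (0 to 140.1), a log2 fold change of -1.20 ± 0.62 (SE). Obox3-ps5 had 33.2 CPM in K49A embryos (0 to 98.8) and 83.5 in WT embryos (6.30 to 207), a log2 fold change of -0.96 ± 0.53 (SE), beside -0.89 ± 0.52 (SE) for Obox3. In the deep libraries 10 of 11 tested members of these families were negative, with a median of -0.91. With plate column as a factor 11 of 11 were negative, with a median of -1.40. At an unadjusted p under 0.05, 5 were lower there, where 397 of 12456 genes were. With the replicate number as a block 11 of 11 were negative, with a median of -0.87. There 3 were lower at that p, where 102 of 11788 genes were. Without the WT embryos of plate row 4 and with all members kept, 10 of 13 were negative, with a median of -0.65.

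Ribosomal protein copies that were tested had mostly positive fold changes. Of 63 such members 16 were tested, 12 with a positive and 4 with a negative log2 fold change and a median of 0.74, where 58.4% of all genes tested were positive. None was called, and 5 were higher and 1 lower at an unadjusted p under 0.05, where 6.25% of all genes were higher and 1.49% lower. With all 63 kept, 51 were positive with a median of 1.21, beside 0.11 over all genes, and 20 were higher and 2 lower at an unadjusted p under 0.05, where 6.32% of genes were higher and 1.5% lower. These counts are a description and support no direction, because the rule takes in members through high values in either group, and of all members 32 reached 1 CPM in K49A embryos alone against 8 in WT embryos alone. The direction of the 16 was positive in 13 with DESeq2 size factors and 11 with library totals alone. Rps13-ps2 had a median of 3.40 CPM in K49A embryos (0 to 226) and 3.29 in WT embryos (0 to 22.4), a log2 fold change of 1.92 ± 0.87 (SE). Its high values lay in K49A replicates 3, 8, 14, 15 and 22, at 34.0, 44.2, 226, 35.7 and 33.0 CPM, and WT replicates 5 and 19 stood highest in their group. Replicates 3, 14 and 22 of these K49A embryos are not deep libraries, and with the deep libraries alone the log2 fold change was 0.75. Rps16-ps2 was highest in K49A replicates 14 and 3, at 99.3 and 68.1 CPM, against at most 7.70 CPM in WT embryos, and its log2 fold change was 1.76 ± 0.77 (SE) in all tested and 0.07 in deep libraries. The parents had log2 fold changes of 1.82 ± 0.66 (SE) for Rps13 and 1.63 ± 0.62 (SE) for Rps16 in all tested, and 0.79 and 0.36 in deep libraries. Both copies have no unique stretch, so their change cannot be told apart from that of their parents. In deep libraries 19 ribosomal protein copies were tested, 14 of them positive, with a median of 0.44. At an unadjusted p under 0.05, 1 was higher and 3 lower there, where 3.18% of genes were higher and 1.91% lower. The 1 copy called there, Rps2-ps13, was lower in K49A embryos, where 0.0312% of genes were called lower. With all 63 kept in deep libraries, 48 were positive, the median was 0.55, and 5 were higher and 3 lower at an unadjusted p under 0.05, where 3.18% of genes were higher and 1.9% lower.

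Rpl19-ps3, a copy of a large-subunit protein gene, can be told from its parent, with 99.9% unique stretches. It had a median of 11.2 CPM in K49A embryos (0 to 30.1) and 2.58 in WT embryos (0 to 15.3), with overlapping groups, a log2 fold change of 1.55 ± 0.57 (SE) and an edgeR adjusted p of 0.436, beside 0.96 ± 0.51 (SE) for Rpl19. Gpx4-ps2, a copy of the gene for a lipid peroxide reductase, had 6.01 CPM in K49A embryos (0 to 61.996) and 3.54 in WT embryos (0 to 10.5). Its log2 fold change was 1.83 ± 0.59 (SE), with an adjusted p of 0.341 by edgeR and 0.0376 by DESeq2, and that of Gpx4 was 1.41 ± 0.54 (SE). Bambi-ps1 had 6.21 CPM in K49A embryos (0 to 25.3) and 0.97 in WT embryos (0 to 9.80), a log2 fold change of 1.59 ± 0.71 (SE), beside -0.70 ± 0.42 (SE) for Bambi. Rpl17-ps3, another large-subunit copy, had a log2 fold change of 1.61 ± 0.70 (SE), beside 1.12 ± 0.49 (SE) for Rpl17.

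**Figure D4:**
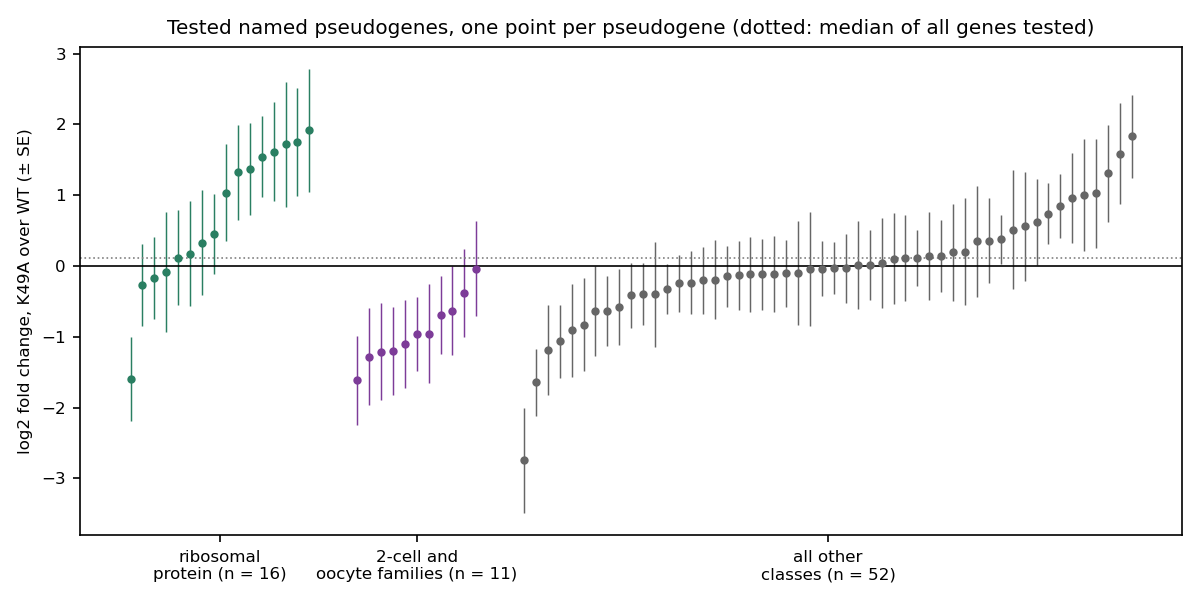
The log2 fold change (K49A over WT, ± SE) of the 79 tested members, one point each, sorted within 3 groups of stems. The 2-cell and oocyte families lie at or below 0, most of the 16 ribosomal protein copies lie above it, and the other 52 spread on both sides. The dotted line is the median of all genes tested, 0.11.

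Rps2-ps13, an X-linked processed copy of the gene for small-subunit protein S2 at 52898588 to 52899469 on the plus strand, was high in 6 WT embryos. It had a median of 0.84 CPM in K49A embryos, with a range of 0 to 14.3, and 28.6 CPM in WT embryos, with a range of 0 to 617. In WT embryos the values fell apart into those of replicates 19, 21, 12, 20, 24 and 23, at 617, 181, 148, 118, 63.1 and 54.0 CPM, and the other 6, at 3.21 CPM or less. The 17 K49A embryos thus overlapped with the low WT embryos and with none of the high ones. It did not pass the filter of the main test. With all members kept beside the filter, an alternative chosen after its values were seen, its log2 fold change was -5.30 ± 0.93 (SE), with an edgeR adjusted p of 0.00574, where 0.00797% of genes were called higher and 0.0239% lower. Among libraries of at least 500000 counts it was called lower as well, at -5.39, where 0.0237% of genes were called lower. In the deep libraries it passed the filter and was called lower at -5.50 ± 1.01 (SE), adjusted p = 0.0299, where 0.0312% of genes were called lower, and 0.031% with all members kept. The 6 high WT embryos helped it pass the filter in the deep libraries and in those of at least 500000 counts. These calls are therefore a description and support no direction.

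The level of its parent Rps2 did not rise with it, but the 2 counts are not independent. Rps2 had a median of 314 TPM in K49A embryos (66.9 to 1046) and 453 in WT embryos (152 to 928), and a log2 fold change of 0.27 ± 0.39 (SE). In WT replicates 19, 12 and 20 the pseudogene held 61.6%, 52.6% and 49.9% of the pair, and in replicates 21, 23 and 24 it held 31.9%, 27.5% and 19.5%. In the other 6 WT embryos it held at most 0.52%, and in K49A embryos at most 8.21%, in replicate 4. In WT replicates 19, 21, 12, 20, 24 and 23, Rps2 stood at 325, 514, 237, 152, 506 and 254 TPM. In the other 6 WT embryos it stood at 373 to 928 TPM. Of the stretches of Rps2-ps13 10.2% were unique. The counting model divides reads that fit both genes, so the levels of the copy and of Rps2 cannot be fully told apart. Rps2-ps10, another copy, had 33.0 CPM in K49A embryos (0 to 201) and 47.8 in WT embryos (1.61 to 126), a log2 fold change of -0.17 ± 0.58 (SE).

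Plate position moved with these values. K49A embryos filled plate rows 5 to 8 and WT embryos rows 1 to 4, so row and genotype cannot be told apart between groups. Within WT, 5 of the 6 embryos of row 4 carried the high Rps2-ps13 values, at a median of 90.6 CPM, against 1.02 CPM over the 6 embryos of rows 1 to 3, of which replicate 12 in row 2 was high. Without row 4 the log2 fold change of Rps2-ps13 was -3.41 and it was not called, where 0.00699% of genes were called lower. The part of the plate row in the difference was not tested.

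Vmn2r-ps110 and Ube2d-ps had their highest value in WT plate row 4 too. Vmn2r-ps110, a duplicate of a vomeronasal receptor gene on chromosome 14 (51377284 to 51380974), had a median of 0.56 CPM in K49A embryos (0 to 33.8) and 15.7 in WT embryos (0 to 113). The median was 50.1 CPM in WT row 4 and 9.56 in WT rows 1 to 3. Its log2 fold change was -2.74 ± 0.74 (SE), with an adjusted p of 0.308 by edgeR and 0.0317 by DESeq2, and it was -1.32 without row 4. Its span meets an exon of a gene on the same strand that is also named Vmn2r-ps111 but is not the member of that name. Reads of this gene and of Vmn2r-ps110 cannot be told apart where they overlap. Ube2d-ps, a duplicate with 97.1% unique stretches of a ubiquitin-conjugating enzyme gene on chromosome 11 (5762129 to 5784710, plus strand), had 8.56 CPM in K49A embryos (0 to 19.9) and 17.01 in WT embryos (0 to 109.9). The medians were 32.7 CPM in WT row 4 and 9.005 in WT rows 1 to 3, and the log2 fold change of -1.64 ± 0.47 (SE, adjusted p 0.334 by edgeR and 0.0451 by DESeq2) was -0.57 without row 4. An exon of Urgcp lies on the opposite strand within its span. Rpsa-ps10, a copy of the ribosomal protein SA gene, had 1.44 CPM in K49A embryos and 4.28 in WT embryos, with a log2 fold change of -1.59 ± 0.59 (SE) that was -2.36 without row 4. Bnip3l-ps, a copy of a mitophagy receptor gene, had 4.14 CPM in K49A embryos and 8.31 in WT embryos, a log2 fold change of -1.06 ± 0.52 (SE).

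**Figure D5:**
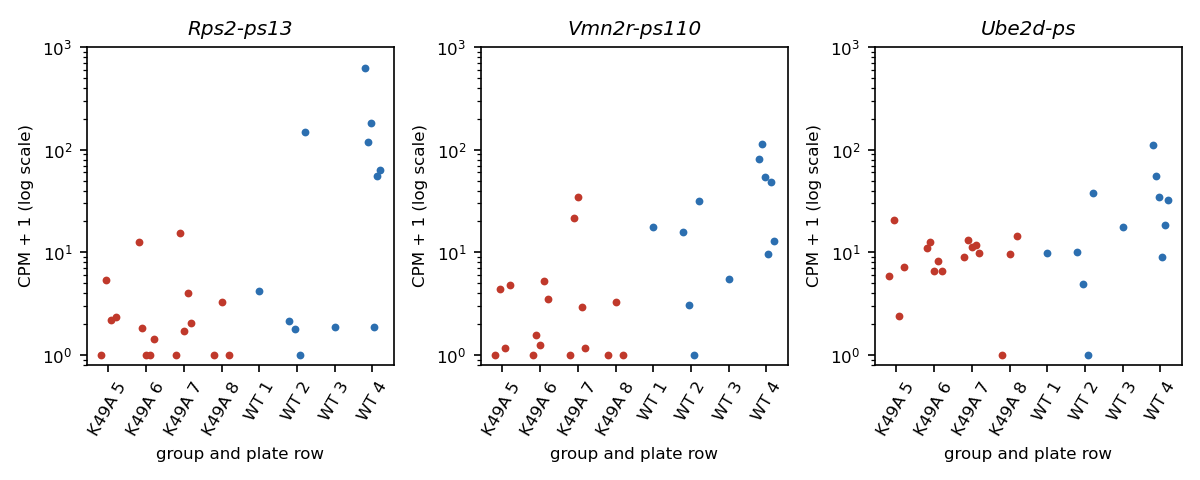
CPM + 1 (log scale) of Rps2-ps13, Vmn2r-ps110 and Ube2d-ps in each embryo, K49A plate rows 5 to 8 on the left and WT rows 1 to 4 on the right. The highest point of each lies in WT row 4, and WT replicate 12 of row 2 stands among the high embryos for Rps2-ps13, at 148 CPM, and for Ube2d-ps, at 36.7 CPM.

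The ratio of pseudogene to parent within an embryo was then compared between K49A and WT embryos. Where both genes are well counted, this sets aside changes that they share. The ratio was log2((pseudogene count + 0.5) / (parent count + 0.5)) in embryos with at least 10 counts in the pair, tested over 413 pairs by 2-sided permutation. In an embryo with 0 counts of the pseudogene, the ratio follows the parent count and the depth of the library, and nothing is set aside. Of the 132 member pairs 0 were called after Benjamini-Hochberg adjustment, where 0% of all pairs were, and 13 had an unadjusted p under 0.05, where 5.33% of all pairs did. The smallest adjusted p was 0.367. The median difference was 0.04 over member pairs and -0.04 over all pairs.

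The 4 member pairs with the smallest p come first here, and none passed the threshold. For Rps15a-ps6, which lies in an intron of Nudcd3 on the same strand, the pseudogene had a median of 0.95 CPM in K49A embryos (0 to 43.7) and 0 in WT embryos (0 to 1.62). Its log2 ratio averaged -6.23 ± 1.38 in K49A embryos and -8.18 ± 1.46 in WT embryos (SD), a difference of 1.95 (permutation p = 0.0014, adjusted p 0.367). Rps15a had a log2 fold change of 1.32 ± 0.60 (SE), with medians of 71.7 CPM in K49A embryos and 95.9 in WT embryos. The highest values of the copy, 43.7 and 41.2 CPM, lay in K49A replicates 14 and 22, neither of them a deep library. Rpl34-ps1 had a difference of -2.36 (permutation p = 0.00246, adjusted p 0.367), with 1.58 CPM in K49A embryos (0 to 79.4) and 3.28 in WT embryos (0 to 37.8). Its parent Rpl34 had a log2 fold change of 2.73 ± 0.72 (SE, edgeR adjusted p 0.285), and the copy one of -0.09 ± 0.85 (SE), or -1.90 in the deep libraries. K49A replicate 14, not a deep library, held 44.3% of the summed CPM of Rpl34. The medians of Rpl34 were 29.9 CPM in K49A embryos and 22.6 in WT embryos. Pcna-ps2, a copy of the gene for the DNA polymerase sliding clamp, had a difference of -1.10 (permutation p = 0.00593, adjusted p 0.367), with 1.61 CPM in K49A embryos (0 to 4.54) and 4.53 in WT embryos (1.604 to 20.2). Rps2-ps13 had a difference of -3.23 (permutation p = 0.00621, adjusted p 0.367), its log2 ratio averaging -7.74 ± 1.89 in K49A embryos and -4.51 ± 3.86 in WT embryos (SD). The CPM of each of these 4 members overlapped between K49A and WT embryos. Next came Bambi-ps1, with a difference of 2.61 (permutation p = 0.00622, adjusted p 0.367). All stretches of Bambi-ps1 and of Bambi were unique.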

How the data were processed

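Expected counts and TPM per gene were deposited by the authors, with a table of plate rows and columns. Tools named in the submitters' processing notes are RSEM 1.3.3, STAR 2.7.8a, cutadapt 2.3 and FastQC 0.11.8, and the builds named are GRCm38 and mm10. The annotation release and the strand setting of counting are not given in the sources used here. All deposited expected counts were whole. The 5 rows without a gene identifier held 0 counts and were left out.

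Libraries with at least 100000 counts were tested (105627 to 5309505 counts). Genes were kept with filterByExpr, scaled by TMM and compared with edgeR 4.0.16 (robust glmQLFit, R 4.3.3), with Benjamini-Hochberg adjustment at 0.05. An SE was taken as the absolute log2 fold change over the root of its F statistic. CPM in the text is per 1000000 TMM-scaled counts, except in the rule for members, the correlations and the shares of summed CPM. Those used library totals. Alternatives were DESeq2 1.42.0, other scalings, filters, depths and embryos, plate column and replicate number. Ratios and correlations were tested with 100000 resamples. Parents were matched by symbol, and alignments used blastn 2.17.0+. On simulated data with 11914 genes, the spread of each gene was set by its level, and changed genes were drawn from the more abundant ones alone. There edgeR recovered 41 of 50 genes changed 4-fold and 5 of 50 changed 2-fold, and called 9 of 11714 unchanged genes. The mean CPM that chose the members had a median of 3.99, so recovery at the level of most members was not measured.

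The members and lists were chosen with earlier results of these data known. Named genes are the 12 members of highest mean CPM, each member called, the 6 smallest p in each direction, the 4 member pairs with the smallest ratio p, Rps2-ps13, the 3 members just inside and the 3 rows just outside the limit, and parents. Others, among them the pairs above 50%, were named after their values were seen.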

Additional observations from a re-analysis of the deposited data

Results flagged for a closer look

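The 19 libraries below the depth minimum entered no comparison, but some of the 12 most abundant members had counts in them above a fixed floor of 3. Summed over these libraries, Tmem250-ps had 16 counts, Gpr137b-ps 5, Tpt1-ps3 5 and Rps2-ps13 4. Together these libraries held 58860 counts. By the rule for members, the mean over the tested libraries was 250.5 CPM for Tmem250-ps and 173 CPM for Gpr137b-ps. It was 36.6 CPM for Tpt1-ps3 and 36.2 CPM for Rps2-ps13. The counts of Rps2-ps13 lay in 1 of the 19 libraries, and those of the other 3 members in 2 each. The source of these counts was not tested. The groups of 17 K49A and 12 WT embryos are too large for the test of a single distant sample, so none was run.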

How the results depend on the processing

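The test called 0 genes higher and 2 lower in K49A embryos. DESeq2 called 74 higher and 11 lower, no low-count filter 661 and 465, plate column as a factor 2 and 2, and keeping all members 1 and 3. Deep libraries gave 4 lower, with or without all members kept, and leaving out WT plate row 4 gave 1. Members called were 1 higher and 2 lower with DESeq2, 2 and 3 with no filter, and 0 and 1 with at least 500000 counts, in deep libraries, with all members kept, and in deep libraries with all members kept, the 1 being Rps2-ps13 in these 4. The 3 settings that keep all members were added after seeing the data. With the replicate number as a block, over 9 shared numbers, 1 gene was called lower, and 0 in the same embryos without the block. Same-numbered embryos correlated above 0.1 for 2 of 9 numbers and 0 had their own number as best partner.

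Leaving out each embryo in turn gave 0 to 2 genes higher, 2 to 4 lower, and 0 to 1 members lower. The member was Rps2-ps13 without WT replicate 8, 9, 10, 15 or 22, each of them a WT embryo with a low Rps2-ps13 value. Log2 fold changes near 0 changed sign. Tmem250-ps was 0.0068 with at least 500000 counts and 0.0274 without the dot embryos (-0.14 to 0.11 over left-out embryos). Gpr137b-ps was 0.10 with at least 500000 counts and in both deep settings, 0.0301 without the dot embryos and 0.0499 without row 4 (-0.11 to 0.049). Oaz1-ps was -0.0103 with library totals (-0.20 to 0.43). Rps2-ps10 was 0.0282 in deep libraries, 0.0257 there with all members kept, 0.0311 without the dot embryos, 0.0098 with the block, 0.36 in the same embryos without it and 0.22 without row 4 (-0.54 to 0.0476). Tpt1-ps3 was 0.18 in the embryos with shared numbers, and Olfr1300-ps1 0.33 without row 4. Rpl34-ps1 was 0.29 with DESeq2 size factors, 0.55 with DESeq2 and 1.77 without row 4 (-1.11 to 0.59). Left-out embryos gave -0.10 to 0.58 for Atp6v0c-ps2, -0.22 to 0.0034 for Sms-ps and -0.0066 to 0.42 for Rps2. The causes were not tested.

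A median of 1 CPM, in place of the mean, left 109 members. Unique stretches had a median of 39.1% at 75 bases and 48.9% at 100. No ratio was called under any alternative run (0 in each). Members at a few CPM rest on few counts in the shallow libraries, which limits what their zeros show.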
